A study of Homo sapiens with 6 samples.

Results

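The genes described here are the metalloproteinases of the MMP, ADAM and ADAMTS families and the TIMPs, their tissue inhibitors, in the pediatric glioblastoma cell line KNS42. They were chosen by symbol and not by any measured value, as the protein-coding genes named MMP, ADAM or ADAMTS with a number and TIMP1 to TIMP4. This gave 66 of the 58174 genes in the table, or 66 of its 19799 protein-coding genes, with 23 MMPs, 20 ADAMs, 19 ADAMTSs and 4 TIMPs. KNS42 cells were transfected with a control siRNA (siC, n = 3) or with a pool of siRNAs against MSI1 (siMSI1, n = 3), grown in DMEM with serum and harvested 72 h later for mRNA-seq. MSI1 (Musashi1) is an RNA-binding protein of neural stem cells. All libraries stem from 1 established line, and the labels do not say whether the replicates were separate cultures, so the p-values measure the spread between these libraries only. The comparison addresses which mRNAs change in abundance upon MSI1 knockdown.

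MMPs, ADAMs and ADAMTSs are zinc-dependent proteases, apart from some ADAMs that lack the catalytic residues. MMPs cleave collagens, laminins and other matrix proteins and are either secreted or held at the membrane, ADAMs release the outer parts of membrane proteins such as growth factor precursors and Notch ligands, and ADAMTSs are secreted and cut proteoglycans, procollagens and other matrix proteins. TIMPs bind the active site of these proteases, and in glioma several members are known for their part in invasion of brain tissue. The proteases are made as inactive precursors, so an mRNA level is not a measure of protease activity.

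The deposited values are FPKM (reads relative to gene length and library depth), which allow levels to be compared between genes per length. The depth behind them is not the plain sum of reads on genes. That sum was 0.976 times the depth for siMSI1 replicate 1, 1.02 times for siMSI1 replicate 3 and 0.996 to 1.004 times in siC. The source of this scaling between libraries was not tested, and the fit took the values as deposited. The libraries hold 13087025 to 18024080 reads on genes. Replicates of a group differed more than counting noise would give, by a chi-square per degree of freedom of 3.55 to 11.2, highest for the pairs with siMSI1 replicate 3. The targeted gene MSI1 was at 63.7, 61.9 and 66.9 FPKM with siC and 12.1, 12.3 and 11.2 FPKM with siMSI1. Of 6 neural and glioma markers, 5 were expressed, with a summed level of 1404 to 1466 FPKM in siC and 1164 to 1264 FPKM in siMSI1, while S100B was at 0. GFAP, the astrocyte filament, was at 1.33 to 1.99 FPKM with siC and 4.14 to 5.04 FPKM with siMSI1 (log2 fold change 1.46, adjusted p = 0.000905, limma). FABP7, a fatty acid binding protein of radial glia, was at 34.3 to 38.4 FPKM with siC and 15.1 to 17.8 FPKM with siMSI1 (log2 fold change −1.12, adjusted p = 0.000274, limma). NES, VIM and SOX2 were lower in every siMSI1 library without passing the threshold, with log2 fold changes of −0.16, −0.26 and −0.23. The 4 immune markers summed to 0.196 to 0.472 FPKM in siC and 0.356 to 0.645 FPKM in siMSI1 with AIF1 at 0, the 4 endothelial markers to 0.134 to 0.262 and 0.290 to 0.442 FPKM, and 3 fibroblast and pericyte markers to 0.160 to 0.369 and 0.222 to 0.509 FPKM. The endothelial sums rest on few reads. PECAM1 (0 to 1 in siC, 5 to 8 in siMSI1) and CDH5 (0 to 3, 9 to 22) were higher in siMSI1. VWF overlapped between groups (20 to 37, 14 to 21), and CLDN5 had at most 1 read. Of the 3 epithelial markers, EPCAM and CDH1 were at most at 0.159 FPKM and KRT18 was at 18.2 to 24.9 FPKM. The part of these markers in the results was not tested. In bulk libraries of this kind, fewer cells with an mRNA and less of that mRNA per cell cannot be told apart.

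Of the 66 genes, 21 reached a mean of 0.5 FPKM over the 6 libraries and were tested. 17 had a mean of at least 1 FPKM, 9 were above 10 FPKM and 4 were above 50 FPKM. The 4 were TIMP2, ADAMTS15, TIMP1 and MMP17. 7 members had 0 reads in every library, namely ADAM2, ADAM18, ADAM29, ADAM30, MMP20, MMP26 and MMP27, where 3 reads would correspond to 0.0278 FPKM for ADAM29 in the deepest library and to 0.175 FPKM for MMP26 in the shallowest. A further 14 had at most 3 reads in any library. Such limits cover counting error only.

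**Figure D1:**
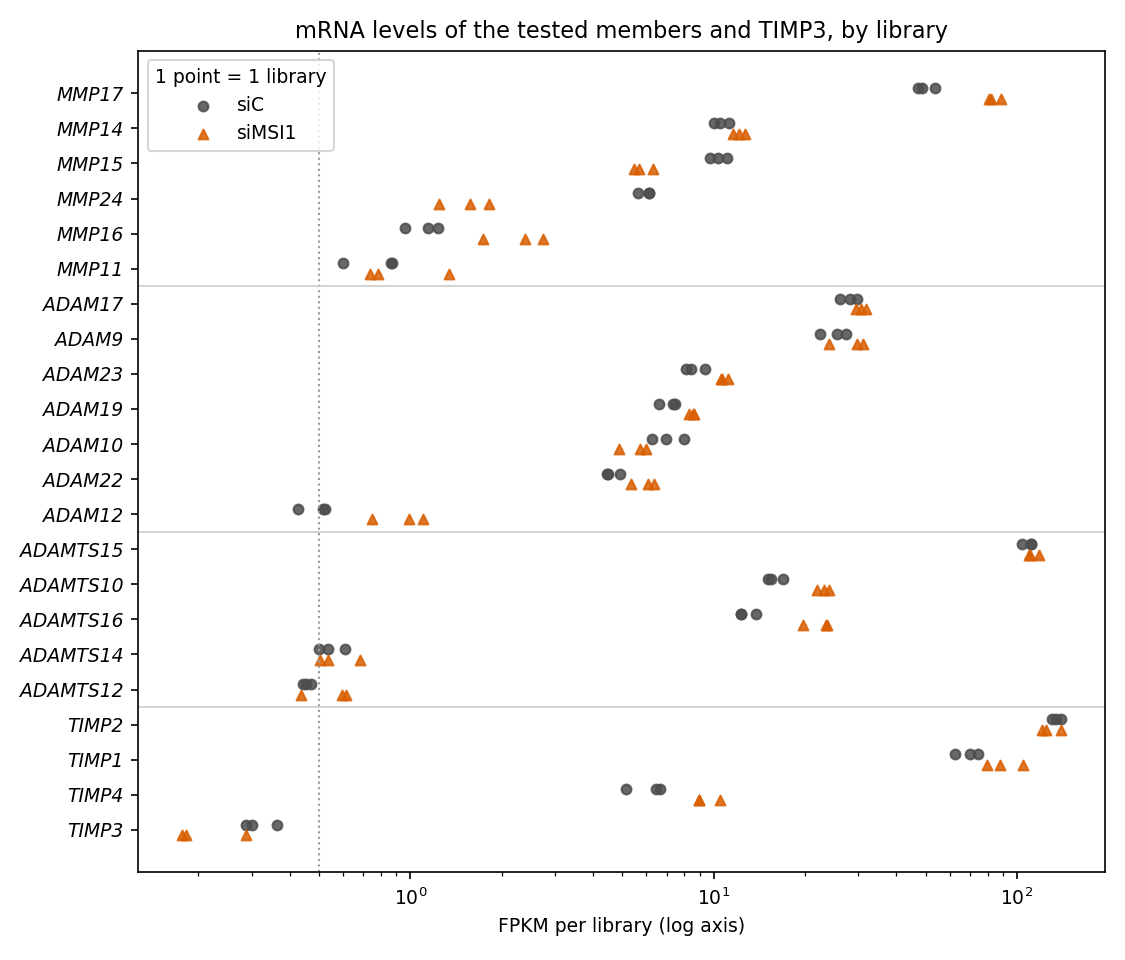
FPKM of each library (log axis) for the 21 tested members and TIMP3, grouped by family and ordered by mean level, with siC as circles and siMSI1 as triangles. The dotted line marks 0.5 FPKM, the mean level needed for the test, and only TIMP3 lies below it in all 6 libraries, while MMP24 and MMP15 are the members whose siMSI1 points lie far to the left of siC.

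Each family was carried by a few genes. MMP17 alone held 62.8% of the summed MMP level in siC and 78.3% in siMSI1. ADAM17 and ADAM9 together held 65.0% of the ADAM level in siC, and ADAMTS15, ADAMTS10 and ADAMTS16 held 98.3% of the ADAMTS level. TIMP2 and TIMP1 made up 97.0% of the TIMP level. The summed MMP level was 79.4 ± 4.53 FPKM in siC and 107 ± 5.24 FPKM in siMSI1 (SD, n = 3), the ADAM level 81.6 ± 5.31 and 91.2 ± 6.13 FPKM, the ADAMTS level 139.6 ± 5.56 and 160.3 ± 7.28 FPKM, and the TIMP level 209.95 ± 11.1 and 228.7 ± 23.4 FPKM. The lowest siMSI1 library lay above the highest siC library for the MMPs (103 against 84.3 FPKM) and the ADAMTSs (154 against 144.5 FPKM), while the groups overlapped for the ADAMs and the TIMPs. Per FPKM of TIMP, the MMPs, ADAMs and ADAMTSs summed to 1.43, 1.49 and 1.38 FPKM with siC and 1.62, 1.68 and 1.43 FPKM with siMSI1, so these ranges overlapped as well. This sum includes ADAMs without protease activity, such as ADAM22 and ADAM23.

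**Figure D2:**
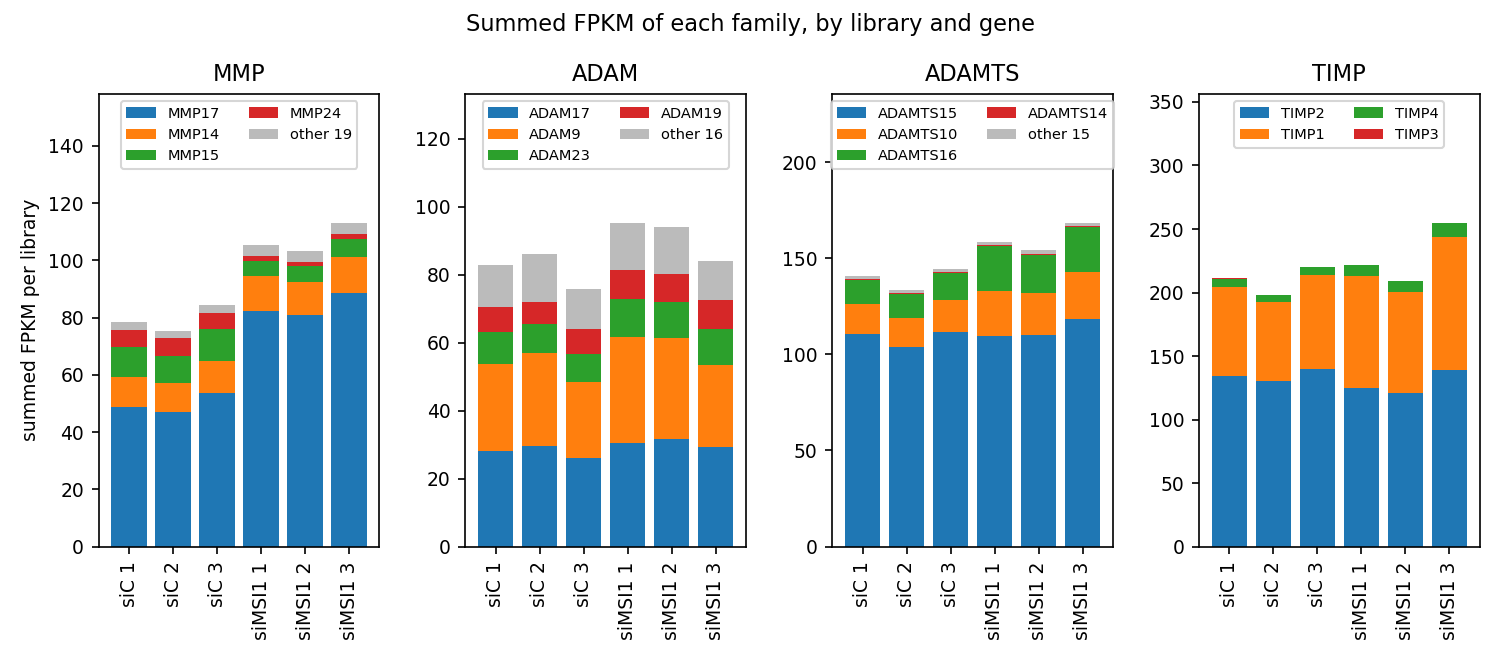
Summed FPKM of each family in each of the 6 libraries, stacked by gene, with the 4 genes of highest mean level shown apart and the others in grey. MMP17, ADAMTS15 and TIMP2 form the largest blocks of their families, and the MMP bars of siMSI1 (103 to 113 FPKM) all stand above those of siC (75.3 to 84.3 FPKM). This rise lies in the MMP17 block, while the other MMPs together are lower in siMSI1.

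Upon MSI1 knockdown, 6 of the 21 tested members were past an adjusted p of 0.01 (limma on log2(FPKM + 0.1), Benjamini-Hochberg over all 15069 tested genes), 2 lower and 4 higher. MMP24 and MMP15 fell, and MMP17, ADAMTS16, ADAMTS10 and TIMP4 rose. This is 28.6% of the tested members, while 11.0% of all tested genes and 13.1% of the tested protein-coding genes were called, 5.83% of all genes lower and 5.15% higher. The median log2 fold change of the tested members was 0.23, beside 0.00 over all tested genes, and 17 of the 21 were above 0, beside 50% of all genes. The 3 values of one group lay outside those of the other for 14 of the 21 (11 higher, 3 lower), or 66.7%, beside 42.8% of all tested genes. With 3 libraries a group, an exact permutation test of a single gene cannot go below p = 0.1. ADAM12 and ADAMTS12 had siC means of 0.488 and 0.455 FPKM, under the limit. They passed the filter only through siMSI1, with means of 0.947 and 0.549 FPKM. Both count among the 17 above 0, and ADAM12 counts among the 11 higher without overlap. ADAMTS9 missed the filter with 0.477 FPKM over all libraries, so its lower siMSI1 values are not in these counts.

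**Figure D3:**
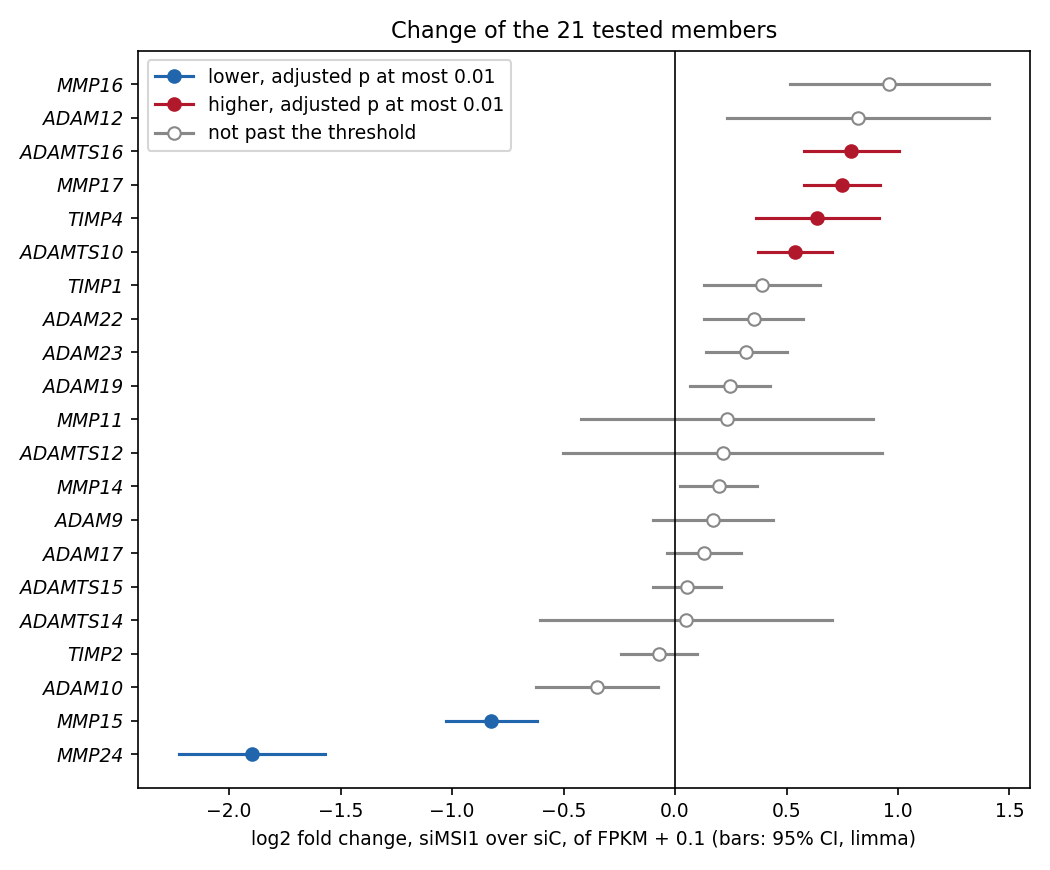
Log2 fold change of siMSI1 over siC of FPKM + 0.1 for the 21 tested members, with 95% confidence intervals from limma. Filled points are past an adjusted p of 0.01, with 2 lower (blue) and 4 higher (red), and open points are not, among them MMP16 with the highest value of 0.96.

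The membrane-type MMPs made up 5 of the 6 tested MMPs, and those past the threshold moved in opposite directions. This group sits at the cell surface, with MMP14, MMP15, MMP16 and MMP24 spanning the membrane and MMP17 and MMP25 attached to it by a lipid anchor. Of the 6, all but MMP25 were tested, and 2 fell, 1 rose and 2 were not past the threshold, beside 11.0% of all tested genes called. The groups did not overlap in any of the 5, beside 42.8% of all tested genes.

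MMP24 (ENSG00000125966, MT5-MMP), a membrane-type MMP of the nervous system that cleaves N-cadherin, lies on the plus strand of GRCh38 at chr20:35226690-35276998. It was at 6.14, 6.12 and 5.62 FPKM with siC and 1.57, 1.24 and 1.81 FPKM with siMSI1, with 357 to 489 and 72 to 115 reads. The siMSI1 libraries lay far below all siC libraries, at 25.9% of the siC mean. This was the only called member with a change of more than 2-fold, with a log2 fold change of −1.90 (standard error [SE] 0.142, 95% CI −2.23 to −1.57, adjusted p = 0.000281, limma). The adjusted p stayed at or below 0.00275 in the 16 alternative fits with the same threshold. MMP24.AS1, a gene on the opposite strand that overlaps MMP24, was at 6.88, 5.77 and 6.42 FPKM with siC and 5.05, 3.96 and 5.33 FPKM with siMSI1. It missed the threshold, with a log2 fold change of −0.41 (adjusted p = 0.0511, limma). The labels call the library preparation strand-specific, but whether the counting used the strand is not given in the sources used here, so reads of the overlap could be shared.

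MMP15 (ENSG00000102996, MT2-MMP), which degrades matrix proteins and activates the precursor of MMP2, lies at chr16:58025754-58046901 on the plus strand. It was at 10.3, 9.69 and 11.1 FPKM with siC and 5.48, 5.66 and 6.30 FPKM with siMSI1. None of the siMSI1 libraries reached the lowest siC library, and their mean was at 56.1% of the siC mean, with 328 to 400 reads against 682 to 775. The log2 fold change was −0.82 (SE 0.0879, adjusted p = 0.000836, limma), and no alternative with the same threshold took the adjusted p above 0.0068.

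MMP17 (ENSG00000198598, MT4-MMP), the lipid-anchored member and the MMP with the highest level, lies at chr12:131828393-131851783 on the plus strand. Its levels were 48.8, 47.0 and 53.7 FPKM in siC and 82.2, 80.8 and 88.5 FPKM in siMSI1. It rose 1.68-fold, at 2927 to 3407 reads in the siC libraries and 4240 to 5087 reads in the siMSI1 libraries. The log2 fold change was 0.75 (SE 0.074, adjusted p = 0.000613, limma), with an adjusted p of at most 0.00587 over the alternatives.

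MMP16 (ENSG00000156103, MT3-MMP), which is known from brain and glioma, was at 0.964, 1.23 and 1.15 FPKM with siC and 2.74, 2.39 and 1.74 FPKM with siMSI1, a mean 2.06-fold higher. The groups did not overlap, but siMSI1 replicate 3 was closer to siC than the other siMSI1 libraries, and the adjusted p of 0.0104 missed the threshold (log2 fold change 0.96, SE 0.193, limma). Without siMSI1 replicate 3 it was 0.00439. The 16 alternatives gave adjusted p-values between 1.9e-07 and 0.0418, with a call in 7. MMP14 (MT1-MMP), the main activator of MMP2, was at 10.5, 10.0 and 11.2 FPKM with siC and 12.2, 11.6 and 12.7 FPKM with siMSI1. The siMSI1 values were all slightly higher, with a log2 fold change of 0.20 (95% CI 0.02 to 0.37, adjusted p = 0.0912, limma). MMP25, the other lipid-anchored member, had 1 to 6 reads per library.

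**Figure D4:**
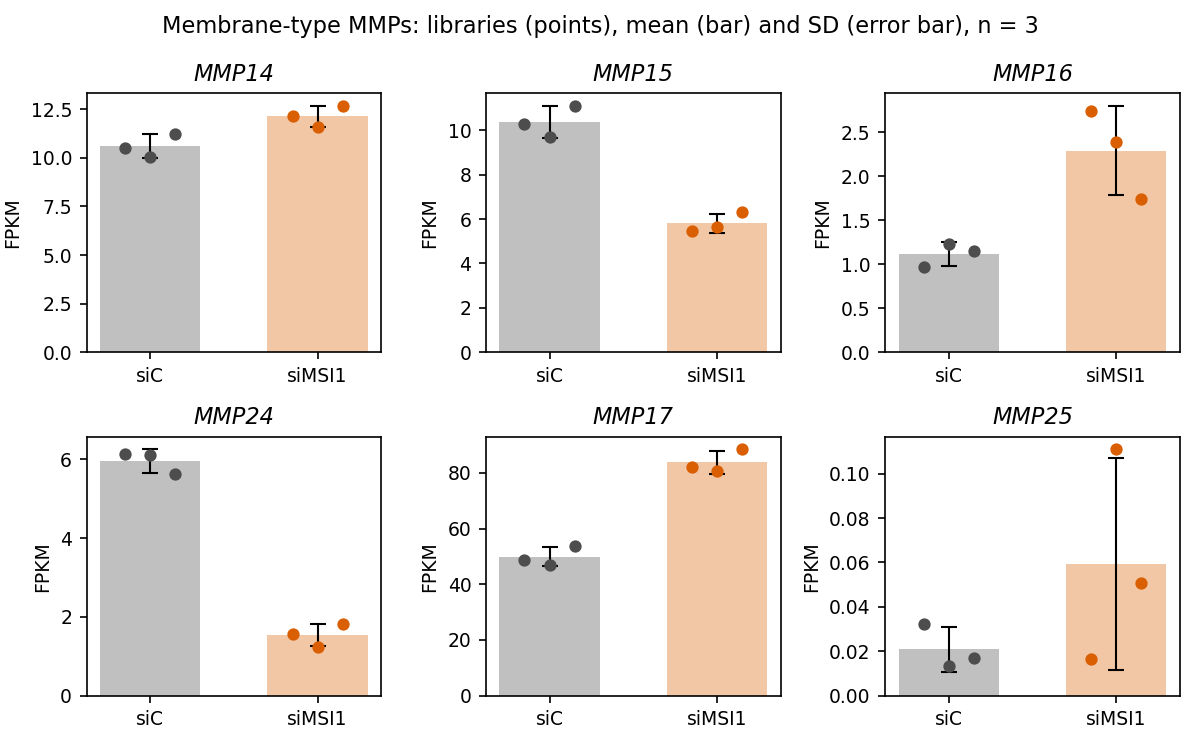
FPKM of the 6 membrane-type MMPs in siC and siMSI1, with each library as a point, the mean of 3 as a bar from 0 and the SD as error bar, on an axis of its own for each gene. MMP15 and MMP24 are lower in siMSI1 and MMP17 is higher, while MMP16 (1.74 to 2.74 against 0.964 to 1.23 FPKM) and MMP14 do not overlap between groups without passing the threshold, and MMP25 is near 0 in all libraries.

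The secreted MMPs were low. The gelatinase MMP2 had 20, 14 and 6 reads with siC and 8, 6 and 28 reads with siMSI1 (0.0845 to 0.395 FPKM). The gelatinase MMP9 had 1, 2 and 4 reads with siC and 1, 6 and 3 reads with siMSI1 (0.0286 to 0.196 FPKM), and the groups overlapped for both. The collagenases MMP1, MMP8 and MMP13 had at most 2 reads in any library. Of the stromelysins, MMP3 and MMP10 had at most 5 reads. MMP11, which acts on serpins more than on matrix, was the only secreted MMP that was tested, at 0.864, 0.598 and 0.873 FPKM with siC and 0.734, 0.781 and 1.35 FPKM with siMSI1 (log2 fold change 0.23, 95% CI −0.42 to 0.89, adjusted p = 0.59, limma). The other secreted MMPs were under the filter. Among these, 2 had groups that did not overlap, and they are named after their values were seen. The matrilysin MMP7 had 9, 1 and 3 reads in siC and 0 in all siMSI1 libraries, and MMP19 had 8, 8 and 7 reads in siC and 2, 3 and 2 reads in siMSI1. TMEM198B, which overlaps MMP19 on the opposite strand, fell from 224 to 281 reads per library (mean 3.74 FPKM) to 107 to 125 reads (mean 1.97 FPKM, adjusted p = 0.00112, limma), in the same direction, and whether reads were shared was not tested. In the fit without a filter, the adjusted p-values of MMP7 and MMP19 were 0.214 and 0.30 (limma). The other MMPs with reads, MMP12, MMP21, MMP23B and MMP28, had at most 2 reads in any library.

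None of the 7 tested ADAMs was past the threshold with limma on FPKM, beside 11.0% of all tested genes. At an adjusted p of 0.05 (limma), ADAM12, ADAM22 and ADAM23 passed, beside 3787 of all 15069 tested genes. With voom on the recovered reads, 4 of the 7 were called, beside 2854 of the 15069. In 5 of the 7 the groups did not overlap, beside 42.8% of all tested genes. These counts include ADAM12, which passed the filter only through its siMSI1 level. ADAM17 (TACE), the sheddase of TNF and of EGF receptor ligands, had the highest ADAM level, at 28.2, 29.7 and 26.1 FPKM with siC and 30.6, 31.7 and 29.4 FPKM with siMSI1. These ranges overlapped, and the log2 fold change was 0.13 (95% CI −0.04 to 0.29, adjusted p = 0.231, limma). ADAM9 was at 25.6, 27.4 and 22.4 FPKM with siC and 31.2, 29.7 and 24.1 FPKM with siMSI1, again with overlap (log2 fold change 0.17, adjusted p = 0.328, limma). Genes on the opposite strand overlap both, IAH1 for ADAM17 (log2 fold change −0.11, adjusted p = 0.313, limma) and TM2D2 for ADAM9 (−0.28, adjusted p = 0.0339, limma). Whether reads were shared with these was not tested. ADAM10, which releases the outer parts of Notch, N-cadherin and the amyloid precursor protein, was at 6.97, 7.99 and 6.27 FPKM with siC and 5.70, 5.997 and 4.88 FPKM with siMSI1. All siMSI1 values of ADAM10 were below those of siC, with a log2 fold change of −0.35 (95% CI −0.62 to −0.08, adjusted p = 0.0652, limma). It was the only tested ADAM with a negative log2 fold change, and over the alternatives its adjusted p ranged from 9.6e-07 to 0.182.

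ADAM12 and ADAM19, the meltrins of muscle and neural crest, differed in level. ADAM12 was at 0.426, 0.516 and 0.522 FPKM with siC and 1.10, 0.990 and 0.749 FPKM with siMSI1, so that it was higher in every siMSI1 library, at 63 to 160 reads. It was tested only because of its siMSI1 level, as its siC mean of 0.488 FPKM was under the filter. Its log2 fold change was 0.82 (95% CI 0.23 to 1.41, adjusted p = 0.0496, limma). ADAM19 was at 7.37, 6.61 and 7.44 FPKM with siC and 8.59, 8.29 and 8.56 FPKM with siMSI1 (log2 fold change 0.25, adjusted p = 0.0508, limma). On the opposite strand, CYFIP2 overlaps ADAM19 and fell, with a log2 fold change of −0.54 (adjusted p = 0.00961, limma).

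ADAM22 and ADAM23 lack protease activity and are neuronal receptors of the secreted protein LGI1. ADAM23 was at 9.39, 8.44 and 8.12 FPKM with siC and 11.1, 10.6 and 10.7 FPKM with siMSI1 (log2 fold change 0.32, 95% CI 0.14 to 0.50, adjusted p = 0.0217, limma). ADAM22 was at 4.46, 4.92 and 4.47 FPKM with siC and 6.35, 6.10 and 5.35 FPKM with siMSI1 (log2 fold change 0.35, 95% CI 0.13 to 0.57, adjusted p = 0.0321, limma). Both were higher in every siMSI1 library without passing the threshold. The other ADAMs were at or near 0. ADAM15 had 2 to 8 reads per library, ADAM8 had 3 to 9 reads, ADAM11 had 5 to 16, ADAM32 had 6 to 20, and ADAM7, ADAM20, ADAM21, ADAM28 and ADAM33 had at most 6 reads in any library.

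Among the ADAMTSs, the most abundant mRNA was not past the threshold and the next 2 in order rose. ADAMTS15 (ENSG00000166106), a protease of versican and related proteoglycans, was at 110.8, 103.9 and 111.5 FPKM with siC and 109.8, 110.2 and 118.6 FPKM with siMSI1. The groups overlapped, and the interval of its log2 fold change (0.05, 95% CI −0.10 to 0.20, adjusted p = 0.588, limma) was narrow at 8198 to 10661 reads per library. ADAMTS16 (ENSG00000145536, chr5:5140330-5320304, plus strand), a protease with fibronectin among its reported substrates, was at 12.3, 12.3 and 13.8 FPKM with siC and 23.4, 19.7 and 23.6 FPKM with siMSI1. It rose 1.74-fold, with a log2 fold change of 0.79 (SE 0.0923, adjusted p = 0.00121, limma) and an adjusted p of at most 0.00854 over the alternatives. ADAMTS10 (ENSG00000142303, chr19:8580240-8610735, minus strand), which binds fibrillin microfibrils, was at 15.4, 15.1 and 16.9 FPKM with siC and 23.1, 21.8 and 23.98 FPKM with siMSI1. It was 1.45-fold higher, with a log2 fold change of 0.54 (SE 0.0722, adjusted p = 0.00203, limma). The adjusted p of ADAMTS10 was 0.0153 without siC replicate 1 and 0.0105 without siMSI1 replicate 1, and it stayed past the threshold when any of the other 4 libraries was left out. With plain moderation it was 0.0101, which also missed the threshold.

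ADAMTS12 (0.437 to 0.612 FPKM) and the procollagen N-proteinase ADAMTS14 (0.501 to 0.682 FPKM) had log2 fold changes of 0.21 and 0.05 with intervals from −0.50 to 0.93 and from −0.61 to 0.70 (adjusted p = 0.656 and 0.92, limma), so changes of moderate size were not detectable at 37 to 86 reads per library. ADAMTS9, a proteoglycanase just under the filter, was at 0.625, 0.616 and 0.573 FPKM with siC and 0.349, 0.379 and 0.319 FPKM with siMSI1. Every siMSI1 library of ADAMTS9 was lower, with 49 to 55 reads against 88 to 119, and in the fit without a filter its log2 fold change was −0.65 (adjusted p = 0.111, limma). ADAMTS8 had 3 to 20 reads, ADAMTS6 9 to 24, ADAMTS13 3 to 17 and ADAMTS17 11 to 26 reads per library, all with overlapping groups. The aggrecanases ADAMTS4 and ADAMTS5 had at most 5 and 2 reads, and ADAMTS1, ADAMTS2, ADAMTS3, ADAMTS7, ADAMTS18, ADAMTS19 and ADAMTS20 had at most 6. ADAMTS20 had 0, 2 and 2 reads with siC and 3, 2 and 2 reads with siMSI1, and its FPKM did not overlap (adjusted p = 0.613 without a filter, limma).

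Of the inhibitors, 1 rose, TIMP4, and TIMP2, TIMP1 and TIMP3 did not pass the threshold or the filter. TIMP2 (ENSG00000035862), which inhibits MMPs and also takes part with MMP14 in the activation of MMP2, had the highest level of all 66 genes, at 134.3, 130.4 and 139.5 FPKM with siC and 125, 120.8 and 139 FPKM with siMSI1. The groups overlapped, with a log2 fold change of −0.07 (95% CI −0.24 to 0.10, adjusted p = 0.515, limma). AC022966.2 overlaps TIMP2 on the opposite strand, at 190 to 421 reads per library beside 8918 to 13288 for TIMP2, and sharing of reads was not tested. TIMP1 (ENSG00000102265), a broad inhibitor of secreted MMPs, was at 69.9, 62.4 and 74.2 FPKM with siC and 87.7, 79.5 and 105 FPKM with siMSI1. All siMSI1 values were higher, with siMSI1 replicate 3 farthest from siC, but the threshold was missed (log2 fold change 0.39, SE 0.113, adjusted p = 0.0393, limma). Over the alternatives its adjusted p ranged from 7.5e-08 to 0.118. TIMP1 lies within SYN1 on the opposite strand, a gene that fell from 2.26 to 1.19 FPKM (adjusted p = 0.0062, limma), in the other direction.

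TIMP4 (ENSG00000157150, chr3:12153068-12158912, minus strand), the inhibitor with the most restricted expression, mainly in heart and brain, was at 6.63, 5.13 and 6.45 FPKM with siC and 8.96, 8.92 and 10.5 FPKM with siMSI1. It was 1.56-fold higher in siMSI1, with a log2 fold change of 0.64 (SE 0.119, 95% CI 0.36 to 0.91, adjusted p = 0.00791, limma), at 153 to 249 reads per library. Its call was lost with each of the 6 libraries left out, at adjusted p-values from 0.0165 to 0.0214, and also without a filter (0.0275), with median centring (0.0104) and with plain moderation (0.0233), so that it was called in 7 of the 16 alternatives with the same threshold, with the same direction in all 16. TIMP3, the inhibitor that binds to the matrix and acts on ADAM17 and on aggrecanases, was at 0.363, 0.300 and 0.287 FPKM with siC and 0.177, 0.182 and 0.287 FPKM with siMSI1, with 11 to 25 reads, and was under the filter.

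**Figure D5:**
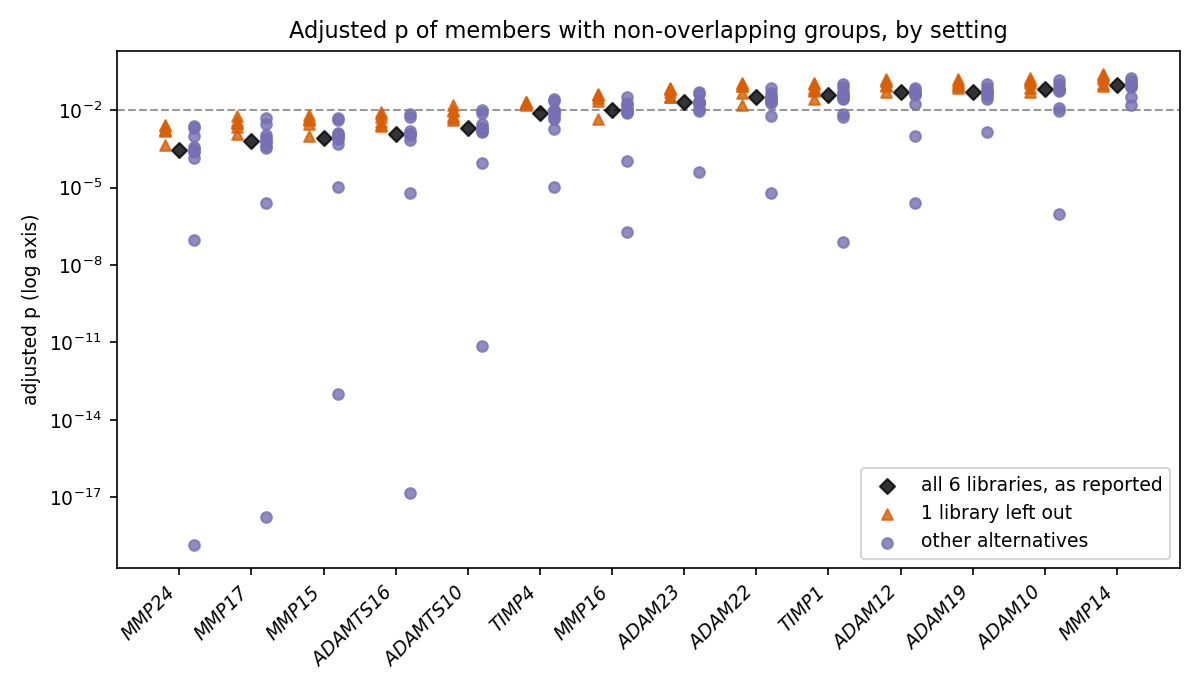
Adjusted p (log axis) of the 14 tested members whose groups did not overlap, as reported (diamonds), with 1 library left out (triangles) and under the other alternatives (circles), with the threshold of 0.01 as a dashed line. MMP24, MMP17, MMP15 and ADAMTS16 are below the line at every point, while TIMP4 is above it for every library left out and MMP16 lies on both sides.

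MSI1 binds single-stranded RNA with a core UAG, in a consensus of G or A, a run of U and then AGU. The 6 words of this form, which are GUAGU, its variant AUAGU, and each of these with 1 or 2 more U before the AGU, were counted in the 3′UTR of the canonical transcript of each gene (GENCODE release 44 on GRCh38, coding strand only). At least 1 was present in 16 of the 21 tested members (76.2%), beside 71.3% of 11264 tested protein-coding genes, with a median of 1.49 words per kb beside 1.57. The 2 members that fell held 1 word each in 3′UTRs of 2392 (MMP24) and 1458 (MMP15) nucleotides, which is 0.418 and 0.686 words per kb. Of the 4 that rose, TIMP4 and ADAMTS10 held 1 word each and MMP17 and ADAMTS16 none. The highest counts were in MMP16 (28 words in 9453 nucleotides), ADAM10 (23 in 8741) and ADAM22 (19 in 6401). None of these was past the threshold in the main fit (adjusted p = 0.0104, 0.0652 and 0.0321, limma). Their groups did not overlap, with MMP16 and ADAM22 higher and ADAM10 lower, and each was called with voom on the recovered reads. A link between words and change was not tested. The sites of the called members are shown with 10 bases on each side and the word in capitals, as RNA read 5′ to 3′, to show where a called mRNA holds such a word. A match is a description of the letters and not a bound site.
MMP24, chr20:35276315-35276340, plus strand: cugcggagauAUUAGUgauucauagg
MMP15, chr16:58045666-58045690, plus strand: uuuucuaaauGUAGUucugcuccag
TIMP4, chr3:12153291-12153316, minus strand: cccaaaccccAUUAGUcuagccuugu
ADAMTS10, chr19:8580656-8580680, minus strand: uccaguucacAUAGUgagacccccc

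Promoter words were counted in members with and without a tested level, as a description. RefSeq promoters (GRCh38.p14, 250 bases before to 50 after the start) were matched by symbol for 39 of the 66 members, 15 of them tested. The GC box GGGCGG, a binding word of SP1, was present on either strand in 14 of 16 promoters of tested members (87.5%) and in 12 of 24 promoters of members not tested (50%), beside 67.0% and 39.5% of the promoters of tested and not tested protein-coding genes and 44.95% of all 35116 promoters. The TATA box TATAAA was present in 1 of 16 and in 7 of 24 (6.25% and 29.2%), beside 5.88% and 14.5% of the protein-coding promoters and 11.5% of all. Among the 39 matched members, the AP-1 word TGAGTCA, which reads TGACTCA on the other strand, was found only in MMP7, beside 4.95% of all promoters. The promoters of MMP1, MMP2, MMP3, MMP9, MMP12, MMP13, MMP16, MMP17, MMP19, MMP25 and MMP28 were not matched, so they were not searched for any of these words. The same holds for unmatched members of the other families, among them the tested ADAM9, ADAMTS15, ADAMTS16 and TIMP2. The shares of tested members thus leave out TIMP2, ADAMTS15 and MMP17, which are among the 4 members above 50 FPKM. For the GC box and the TATA box, tested and untested protein-coding genes differed in the same direction as the members. Examples are shown for expressed members, which are not those of highest level, and for members with few or no reads. They are given as DNA in the direction of the gene, 5′ to 3′, with the word in capitals and 10 bases on each side. The first 3 show the GC box of expressed members, the next 3 the TATA box of members with 0 to 9 reads per library, and the last the AP-1 word of MMP7.
MMP24, chr20:35226635-35226660, plus strand, GC box 45 bases before the start: ccccccaccgGGGCGGggcgcgcgga
MMP14, chr14:22836509-22836534, plus strand, GC box 66 bases before the start: gagggcactgGGGCGGggacggagga
TIMP4, chr3:12158954-12158979, minus strand, GC box 57 bases before the start: gagcccgtcgGGGCGGgattggccct
MMP7, chr11:102530762-102530787, minus strand, TATA box 30 bases before the start: tgagaagctaTATAAAtttctgcagt
MMP10, chr11:102780644-102780669, minus strand, TATA box 31 bases before the start: attgtctctgTATAAAagaaaggcca
MMP26, chr11:4704746-4704771, plus strand, TATA box 28 bases before the start: ctaggctcctTATAAAggctgttttt
MMP7, chr11:102530798-102530824, minus strand, AP-1 word 67 bases before the start: aacactcaaaTGAGTCAcctatttcca

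Genes that act with the proteases were followed in 4 lists of 88 genes in all, of which 58 were tested. Of these, 14 were past the threshold (24.1%, beside 11.0% of all tested genes and 13.1% of the tested protein-coding genes), 5 lower and 9 higher. The median log2 fold change of the 58 was 0.12, beside 0.00 over all tested genes. The lists were chosen with earlier results of these data known and hold CD44, which the paper reports as lower, so this share is not an independent count. The count was 5 without siC replicate 1, 6 without siC replicate 2, 6 without siC replicate 3, 9 without siMSI1 replicate 1, 9 without siMSI1 replicate 2 and 15 without siMSI1 replicate 3. IL6R, PTK7, NECTIN1 and PLAT were called with each library left out, while the calls of NRCAM and CX3CL1 were lost in all 6 such fits and those of the other 8 genes in part of them. By direction, without siC replicate 1, 0 were lower and 5 higher, without siC replicate 2 or 3, 1 was lower and 5 higher, and with the replicate block 10 were lower and 10 higher. Each of the 5 genes called lower, FURIN, TSPAN33, NOTCH1, NRCAM and CD44, lost its call without siC replicate 1.

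Of 21 tested activators and regulators, 2 were lower and 2 higher (19.0%, beside 11.0% of all tested genes). FURIN, the convertase that removes the inhibitory part of membrane-type MMPs, ADAMs and ADAMTSs, fell from 10.3 ± 0.433 to 6.52 ± 0.565 FPKM (SD, n = 3), a log2 fold change of −0.66 (adjusted p = 0.00185, limma). TSPAN33, a tetraspanin that guides ADAM10, fell from 4.96 ± 0.564 to 2.74 ± 0.405 FPKM (log2 fold change −0.84, adjusted p = 0.00459, limma). PLAT, which activates plasminogen, rose from 2.26 ± 0.126 to 4.43 ± 0.295 FPKM (log2 fold change 0.94, adjusted p = 0.00084, limma). A2M, which traps proteases of all classes, was the most abundant of the called genes here and rose from 230.6 ± 3.46 to 333 ± 27.5 FPKM (log2 fold change 0.53, adjusted p = 0.00252, limma). The membrane-anchored MMP inhibitor RECK was at 3.14 ± 0.26 and 3.02 ± 0.228 FPKM (log2 fold change −0.05, adjusted p = 0.768, limma), and the MMP inducer BSG at 334 ± 26.5 and 366 ± 45.5 FPKM (log2 fold change 0.13, adjusted p = 0.415, limma).

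Of 27 tested substrates that ADAMs or other proteases shed, 3 were lower and 5 higher (29.6%, beside 11.0% of all tested genes). NOTCH1, NRCAM and CD44 fell, with log2 fold changes of −0.89, −0.45 and −0.46 (adjusted p = 0.00241, 0.00822 and 0.00303, limma). The receptor gene IL6R rose most, from 1.08 ± 0.142 to 3.20 ± 0.30 FPKM (SD, n = 3), with a log2 fold change of 1.48 (adjusted p = 0.000578, limma). PTK7, NECTIN1, CX3CL1 and TNFRSF1A rose by 0.97, 0.84, 0.80 and 0.61 on the log2 scale (adjusted p = 0.00147, 0.000817, 0.00763 and 0.00202, limma). Of 9 tested matrix substrates, SPARC and COL4A1 were higher, with log2 fold changes of 0.46 and 0.39 (adjusted p = 0.00236 and 0.00481, limma), which is 22.2% beside 11.0% of all tested genes. Of the ADAMTS-like genes, which lack the protease domain, only ADAMTSL5 was tested, with a log2 fold change of 0.17 (adjusted p = 0.562, limma). The lecticans ACAN, BCAN and NCAN, substrates of the ADAMTS proteoglycanases, were under the filter, and VCAN was at 18.9 ± 1.49 FPKM in siC and 25.0 ± 1.52 FPKM in siMSI1 (log2 fold change 0.41, adjusted p = 0.0106, limma).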

How the data were processed

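mRNA-seq libraries of KNS42 cells were assigned to siC (n = 3) and siMSI1 (n = 3) by their titles. According to the study's methods and the submitters' processing notes, the authors clipped reads with cutadapt 1.14, aligned them to GRCh38 with HISAT2 2.1.0, counted reads per gene with featureCounts 1.5.3 (Ensembl genes) and deposited the FPKM of each library. The columns with the authors' own fold changes and p-values, from edgeR, were not used. Whole reads were recovered from FPKM and gene length (100% of values above 0 within 0.01 of a whole number), and depth was 13087025 to 18024080 reads per library.

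limma 3.58.1 in R 4.3.3 (lmFit, eBayes with trend and robust) was fitted to log2(FPKM + 0.1) for 15069 genes, those averaging at least 0.5 FPKM, with Benjamini-Hochberg adjustment over all of them and a threshold of 0.01, two-sided. Fold changes on this scale understate those of low genes. The fit was tested on simulated data. Sequences were read from GENCODE release 44 with hg38 and from RefSeq promoters, and all 66 members were found in GENCODE. Python 3.11.15 was used for the rest. The 17 alternatives were added values of 1 and 0.01, no filter, a mean of at least 1 FPKM, median centring, quantile normalization, plain moderation, an adjusted p of 0.05, a replicate block, voom on the recovered reads with and without that block, and each library left out.

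Members were taken by symbol alone, and this was done, like the choice of gene lists and tests, with earlier results of these data known. Values in every library are given for members past the threshold, TIMP1 to TIMP4, the 5 members of highest mean level, MMP2, MMP9, MMP14, ADAM10 and ADAM17, and members without overlap are named with fold and adjusted p. Values in every library for the other tested members of at least 0.5 FPKM and for MMP7, MMP19 and ADAMTS9, and the related genes RECK, BSG, VCAN and ADAMTSL5, which were not past the threshold, were added after the data were seen.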

Additional observations from a re-analysis of the deposited data

How the results depend on the processing

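The number of changed members stayed at 4 to 7 in 14 of the 17 alternatives, with MMP24, MMP15, MMP17 and ADAMTS16 called in all 17. It rose to 11 at an adjusted p of 0.05, to 12 with voom on the recovered reads and to 13 with voom and a replicate block, and lay between 4 and 6 with 1 library left out. The number of all changed genes was 792 without a filter (29846 genes tested), 847 with plain moderation, 3787 at an adjusted p of 0.05, 2854 with voom and 5108 with voom and a replicate block, and 517 to 1603 with 1 library left out, lowest without siC replicate 1. The related genes numbered 8, 29, 27 and 35 under plain moderation, an adjusted p of 0.05, voom, and voom with a replicate block, and 5 to 15 with 1 library left out. The causes were not tested.

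Among the tested members, the only log2 fold changes that reversed were those of ADAMTS14, at −0.0032 without siC replicate 3 and −0.064 without siMSI1 replicate 1 (range −0.064 to 0.13 with 1 library left out), and of MMP11, at −0.019 without siMSI1 replicate 3 (range −0.019 to 0.38). Neither was called in any alternative. Of 351 values of single members under the alternatives, these 3 included, 312 kept direction and side of the threshold, 24 gained a call and 12 lost it. Same-numbered libraries of the groups deviated together only weakly, if at all (r = −0.07, 0.08 and 0.08 across genes). Not every library correlated best with its own number. The replicate block gave 7 changed members, 20 related genes and 2250 genes in all, more than the 6, 14 and 1655 without it. These values do not settle whether same-numbered libraries were paired. Depth limits the 45 members under 0.5 FPKM, of which 7 had no read and 14 at most 3 reads in every library.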
